A study of Mus musculus with 10 samples.

Results

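The collagen genes of the mouse were followed through 10 RNA-sequencing libraries of pluripotent cells and fibroblasts. All protein-coding genes with a symbol of the form Col, number, a, number were taken, which gave 44 of the 54532 genes in the count table, 22046 of them protein-coding. By class there were 11 fibrillar, 9 FACIT (fibril-associated), 6 basement membrane, 6 beaded filament, 4 transmembrane, 3 short-chain network and 2 multiplexin genes, and 3 others (Col7a1, Col26a1 and Col28a1). Each α chain has its own gene, so a collagen molecule can combine the products of several.

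The libraries came from strain 129SV and had 8 combinations of cell type and genotype. The 5 libraries of epiblast stem cells (EpiSC), the primed pluripotent cells of the post-implantation embryo, were the haploid lines haEpi1 and haEpi5, labelled p53-KO, a male and a female diploid wild-type library (fema in the title was taken to mean female), and a diploid library labelled p53-KO. Epiblast-like cells (EpiLC) gave 1 haploid library labelled p53-KO and 1 haploid wild-type library, embryonic stem cells (ESC) gave 1 haploid and 1 diploid wild-type library, and mouse embryonic fibroblasts (MEF) gave 1 diploid wild-type library. The labels name no feeder layer, medium or passage, and the design text speaks of triplicates. Nothing says which libraries came from separate cultures, so p-values measure only the spread between these libraries. Within EpiSC, EpiLC and ESC that spread mixes differences of line, p53 label, ploidy or sex with technical ones, which cannot be told apart. Total counts ran from 15862113 to 18814003 per library.

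Collagens are triple-helical proteins of the extracellular matrix. Fibrillar collagens such as types I, III and V form the cables of connective tissue and are the main secreted products of fibroblasts. Type IV collagen forms the sheet of basement membranes, which embryonic epithelia, the epiblast among them, rest on. Pluripotent cells are often grown on fibroblast feeders, whose RNA can be carried into a library. Each collagen level was therefore read beside its level in MEF and beside 18 fibroblast genes that are not collagens.

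The cell-type labels were checked against their defining markers. Pou5f1, the core pluripotency factor, was at 0 counts in MEF and between 378 and 1144 CPM (counts scaled to library size with TMM factors) in the other libraries. By edgeR all 5 naive pluripotency genes were lower (background 10.1%) and all 3 post-implantation epiblast genes higher (background 6.86%) in EpiSC than in ESC. In EpiLC against ESC all 3 post-implantation genes were higher by edgeR (background 0.317%). There none of the 5 naive genes was called lower (background 0.109%), although all 5 estimates were negative. The naive genes summed to 573 CPM in the p53-KO and 104 CPM in the wild-type EpiLC library. Their sums were 49.8 to 99.8 CPM in EpiSC and 1705 and 3238 CPM in ESC.

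The start sites of the genes the results turn on are shown first, since Col4a1 and Col4a2 are divergent neighbours, Col18a1 has separate starts, and Col3a1 is one of the main fibroblast collagens. The windows run from 250 bases before to 50 bases after the start (RefSeq, GRCm38.p6, 5′ to 3′ on the gene's strand). They are reference sequence, not the 129SV allele. Capitals mark 3 motifs searched on both strands. The GC box was searched as GGGCGG with its reverse complement, the CCAAT box as CCAAT likewise, and the TATA box as TATAAA likewise; no motif contains another.
Col4a1, chr8:11312777-11313076, minus strand: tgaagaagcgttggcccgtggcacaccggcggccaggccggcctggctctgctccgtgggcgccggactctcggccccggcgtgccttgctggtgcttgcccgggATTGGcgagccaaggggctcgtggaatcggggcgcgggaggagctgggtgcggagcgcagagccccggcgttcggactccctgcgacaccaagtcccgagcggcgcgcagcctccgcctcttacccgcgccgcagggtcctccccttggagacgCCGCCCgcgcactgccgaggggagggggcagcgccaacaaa
Col4a2, chr8:11312555-11312854, plus strand: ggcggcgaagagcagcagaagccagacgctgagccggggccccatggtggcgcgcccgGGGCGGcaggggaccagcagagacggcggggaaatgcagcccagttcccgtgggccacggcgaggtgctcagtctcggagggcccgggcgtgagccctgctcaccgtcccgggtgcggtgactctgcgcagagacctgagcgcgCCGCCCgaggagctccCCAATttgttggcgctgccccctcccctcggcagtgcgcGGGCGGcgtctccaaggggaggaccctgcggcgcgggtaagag
Col18a1, upstream start, chr10:77166481-77166780, minus strand: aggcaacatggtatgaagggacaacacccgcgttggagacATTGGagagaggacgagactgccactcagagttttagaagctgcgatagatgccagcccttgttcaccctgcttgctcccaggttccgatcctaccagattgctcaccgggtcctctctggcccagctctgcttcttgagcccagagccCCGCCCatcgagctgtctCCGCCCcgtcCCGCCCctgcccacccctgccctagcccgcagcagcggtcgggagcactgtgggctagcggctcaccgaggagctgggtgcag
Col18a1, downstream start, chr10:77113656-77113955, minus strand: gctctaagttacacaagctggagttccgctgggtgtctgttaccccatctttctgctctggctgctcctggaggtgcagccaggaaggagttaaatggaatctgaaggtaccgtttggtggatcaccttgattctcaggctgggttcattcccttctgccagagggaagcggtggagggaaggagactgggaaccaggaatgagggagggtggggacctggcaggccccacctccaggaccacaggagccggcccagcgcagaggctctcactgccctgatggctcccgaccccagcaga
Col3a1, chr1:45311288-45311587, plus strand: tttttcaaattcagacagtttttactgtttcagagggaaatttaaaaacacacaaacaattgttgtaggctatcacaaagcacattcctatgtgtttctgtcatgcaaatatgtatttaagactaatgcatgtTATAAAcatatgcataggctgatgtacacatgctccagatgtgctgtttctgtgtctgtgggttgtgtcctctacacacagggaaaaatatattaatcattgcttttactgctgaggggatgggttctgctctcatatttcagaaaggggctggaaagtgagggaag
The Col4a1 and Col4a2 windows share 78 bases, and the annotated starts lie 21 bases apart, so that 22 exon bases belong to both genes. They hold 37 and 33 CpG, against a median of 7 over all promoter windows and 11.5 over the 38 windows found for 35 of the collagen genes. The upstream Col18a1 window holds 16 CpG and 3 GC boxes, the downstream one 6 CpG and none of these letters. The Col3a1 window has no CpG and 1 TATA box. A GC box was present in 23 of the 38 collagen windows (60.5%) and in 35.7% of all 32851 windows, a CCAAT box in 34.2% and 37.4%, and a TATA box in 13.2% and 13.6%. Such matches describe the letters only.

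Collagen transcripts took 7.19% of all counts in MEF and 0.0438% to 0.321% in the pluripotent libraries. The EpiSC shares were 0.303% for haEpi1, 0.321% for haEpi5, 0.244% for the female, 0.191% for the male and 0.275% for the diploid p53-KO library. EpiLC gave 0.0922% (p53-KO) and 0.0629% (wild type), and ESC gave 0.220% (haploid) and 0.0438% (diploid). All 5 EpiSC libraries were thus above both EpiLC libraries, whereas the haploid ESC library lay among the EpiSC and the diploid ESC library was the lowest of all. In bulk libraries, fewer cells of a type and less RNA per cell cannot be told apart.

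**Figure D1:**
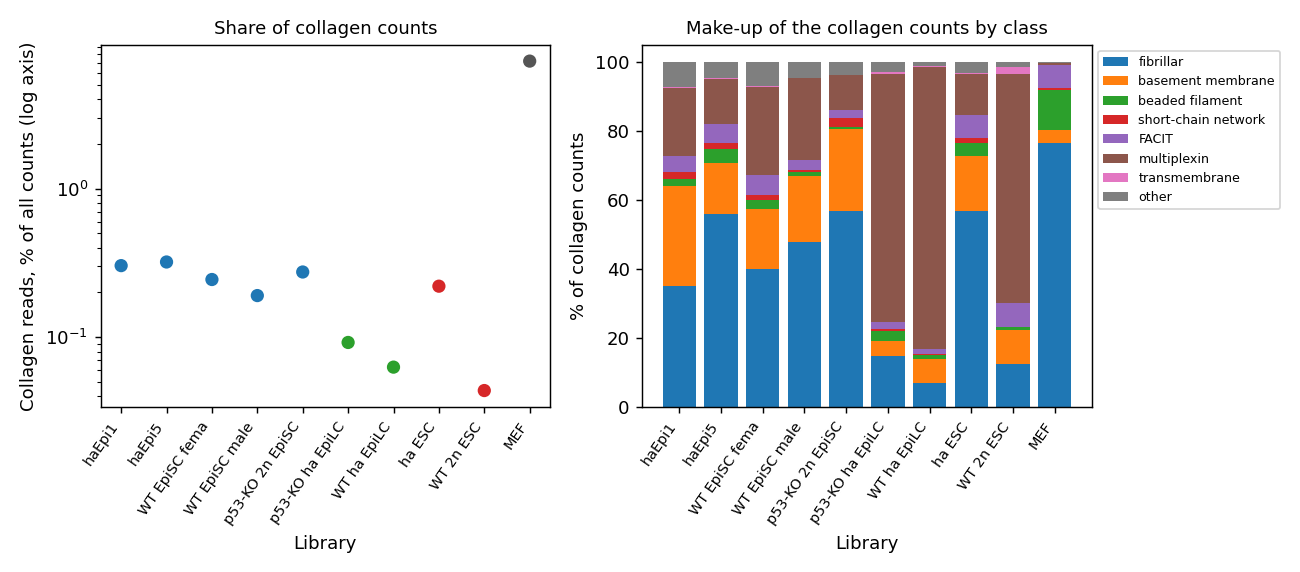
Left, share of all counts that fell in the 44 collagen genes, in percent on a log axis, 1 point per library coloured by cell type. Right, the make-up of those counts by collagen class, in percent of the collagen counts of the library. MEF stands at 7.19% with 76.5% of it fibrillar, while the multiplexins, nearly all Col18a1, make up 72.0% and 81.6% of the collagen counts in the EpiLC libraries.

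The make-up of this share differed as much as its size. In MEF, fibrillar collagens took 76.5% of the collagen counts, beaded filament collagens 11.7% and Col18a1 0.405%. In EpiSC the fibrillar share was 35.2% to 56.9%, the basement membrane share 14.8% to 28.9% and the Col18a1 share 10.1% to 25.3%. Col18a1, which encodes a basement membrane collagen that carries heparan sulfate, took 71.9% and 81.5% of the collagen counts in the p53-KO and wild-type EpiLC libraries. In ESC it took 66.3% in the diploid but 11.8% in the haploid library, whose collagen counts were 56.7% fibrillar. The haploid ESC library was therefore nearer in make-up to EpiSC than to the other ESC library.

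Levels of different genes were compared per transcript length, in the deposited FPKM. At least 1 FPKM was reached by 33 of the 44 collagen genes in MEF. In EpiSC it was reached by 18 (male) to 23 (haEpi1), in EpiLC by 13 (p53-KO) and 6 (wild type), and in ESC by 21 (haploid) and 6 (diploid). The 10 highest in MEF were Col1a1 (3880 FPKM), Col3a1 (1568), Col1a2 (1316), Col6a1 (755), Col5a1 (505), Col5a2 (353), Col6a2 (337), Col6a3 (322), Col12a1 (321) and Col4a1 (232). Most of these are the collagens of fibroblast fibrils and of the microfibrils beside them. Among the pluripotent libraries Col18a1 ranked highest in haEpi1, the female and male EpiSC, both EpiLC and the diploid ESC libraries, with 41.2 to 92.6 FPKM, and Col1a1 ranked highest in haEpi5, the diploid p53-KO EpiSC and the haploid ESC library, with 76.3 to 91.8 FPKM.

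**Figure D2:**
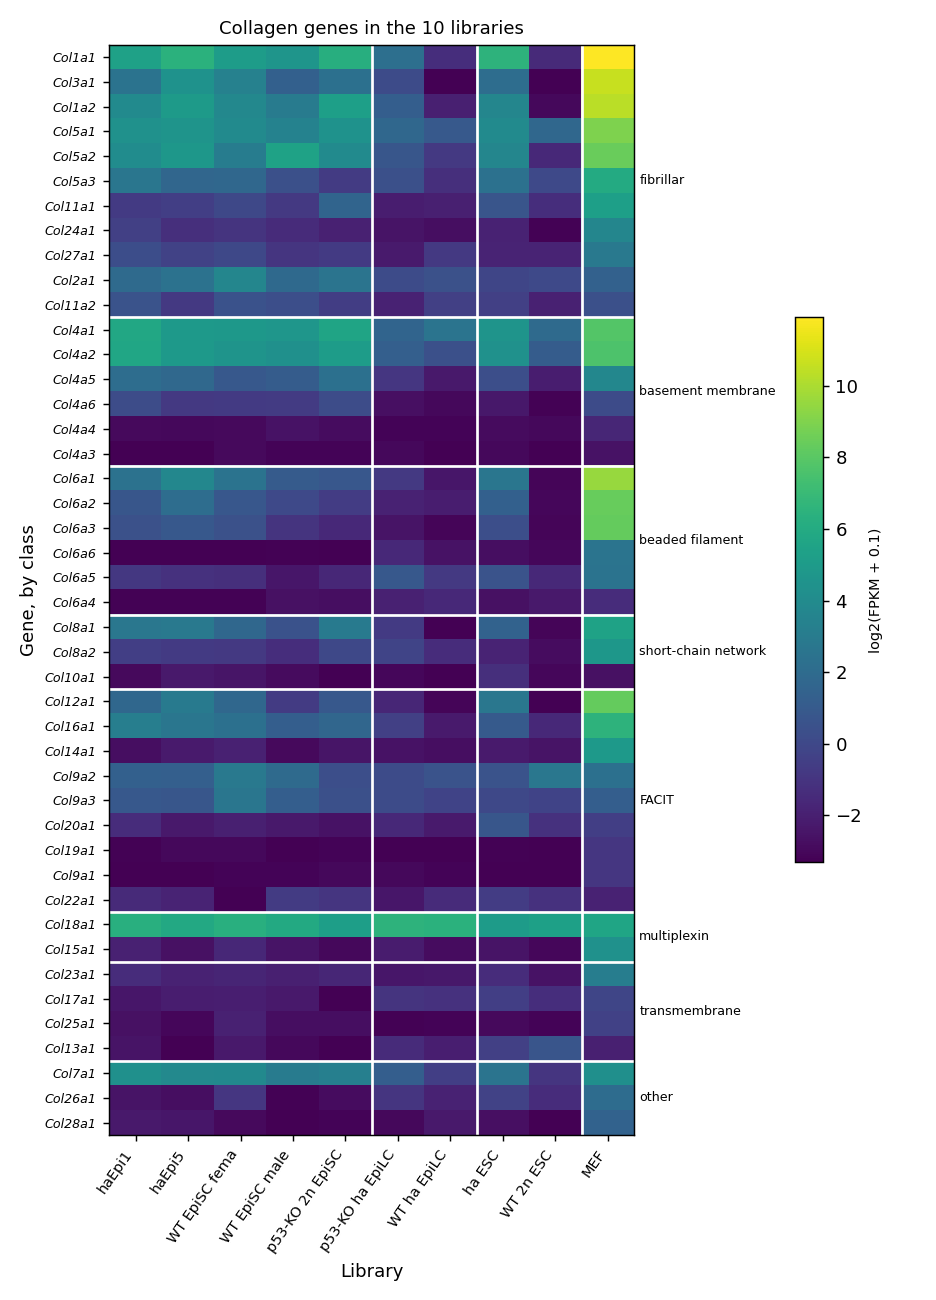
Level of the 44 collagen genes (rows, by class and, within a class, by level in MEF) in the 10 libraries (columns), as log2(FPKM + 0.1). The MEF column is brightest for most genes, up to 3880 FPKM for Col1a1, while the Col18a1 row is bright in all columns, from 33.3 to 92.6 FPKM.

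A collagen whose transcripts in a library came only from fibroblasts like those of the MEF library would keep there about the share of its MEF level that other fibroblast genes keep. Those 18 genes, which encode matrix proteins, receptors and factors of fibroblasts such as Dcn, Postn, Prrx1 and Thy1, stood at a median of 5.03% (haEpi1), 8.0% (haEpi5), 4.81% (female), 1.73% (male) and 0.633% (diploid p53-KO) of their MEF level in the EpiSC libraries. The medians were 0.729% in the p53-KO EpiLC, 0.146% in the wild-type EpiLC, 3.18% in the haploid ESC and 0.0186% in the diploid ESC library. Summed, the 18 genes reached 18115 CPM in MEF, 333 to 1524 CPM in EpiSC, 73.8 and 152 CPM in EpiLC, and 101 and 517 CPM in ESC. In the diploid ESC library 7 of the 18 were at 0 (Fap, Dcn, Postn, Twist2, Prrx1, Cdh11 and Dpt). The fibroblast genes spread widely around these medians, from 0.0726% to 31.9% in haEpi1, and the highest was Twist2 in haEpi1, haEpi5 and the female EpiSC and Mfap5 in the other libraries. The level of the highest gene differed between libraries, from 5.58% in the male EpiSC to 87.5% in haEpi5.

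**Figure D3:**
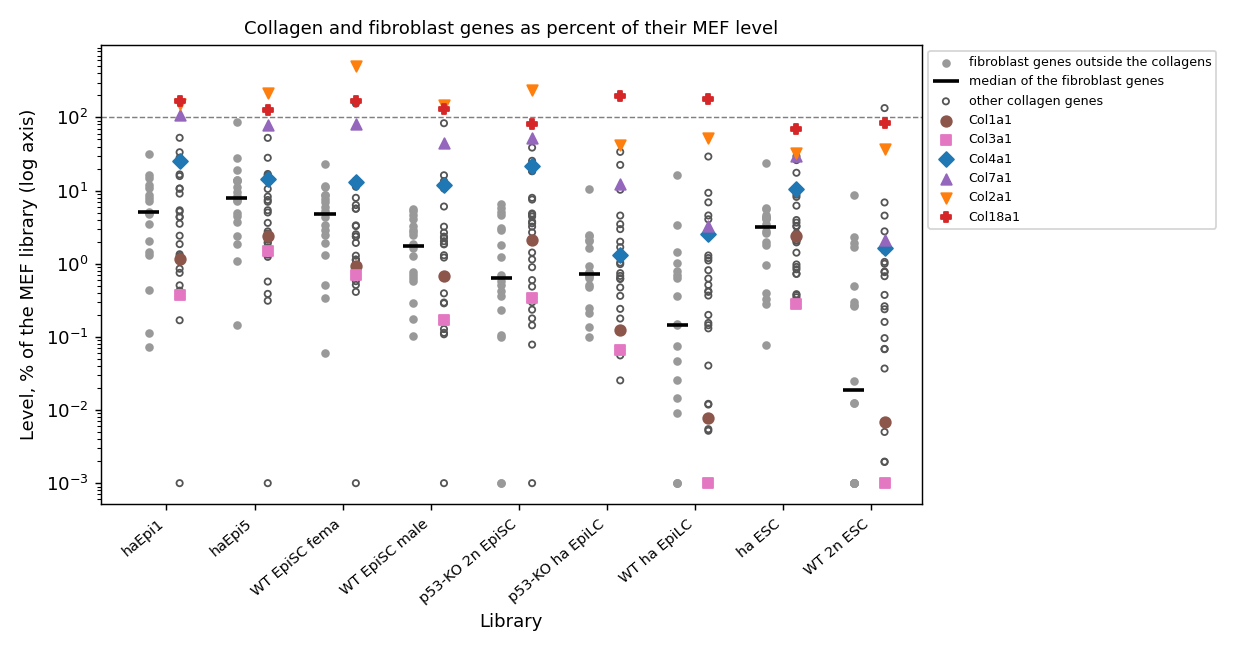
Level in each pluripotent library as percent of the level in MEF, both in CPM, on a log axis, for the 18 fibroblast genes (filled grey, bar at their median) and the 30 collagen genes of at least 10 CPM in MEF; genes at 0 are drawn at 0.001. Col18a1 and Col2a1 lie above the highest fibroblast gene in all 9 libraries, and Col3a1 lies below the fibroblast median in all 9.

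Of the collagens, 30 had at least 10 CPM in MEF and were read on this scale. Their medians were 4.35%, 3.19%, 2.90%, 1.85% and 3.39% of MEF in haEpi1, haEpi5, the female, the male and the diploid p53-KO EpiSC library. In the p53-KO EpiLC, wild-type EpiLC, haploid ESC and diploid ESC libraries they were 1.01%, 0.467%, 2.91% and 0.318%. Col3a1, Col12a1, Col6a1, Col6a2 and Col6a3 were below the fibroblast median in 9 of 9 libraries, and Col1a1 and Col1a2 in 8 of 9. At the other end, Col18a1 and Col2a1 were above the highest of the 18 fibroblast genes in 9 of 9 libraries, Col9a2 in 8, Col7a1 in 6 and Col4a5 in 3. Col4a1, Col4a2, Col27a1 and Col6a5 were above it in 2 libraries each, and Col5a2, Col8a1 and Col11a1 in 1. These counts depend on the level of 1 fibroblast gene per library. Col4a1 was above it at 12% of MEF in the male EpiSC library but not at 25.7% in haEpi1. MEF is a single library, so these percentages have no replicate check on the MEF side.

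Few collagens exceeded their MEF level. Among those of at least 1 FPKM in a library, 5 of 23 were above MEF in haEpi1, where 48.4% of all protein-coding genes of at least 1 FPKM were. The counts were 2 of 20 in haEpi5 (all genes, 50.1%), 5 of 21 in the female EpiSC (49.7%), 2 of 18 in the male EpiSC (52.5%) and 2 of 19 in the diploid p53-KO EpiSC (50.7%). EpiLC and ESC gave 1 of 13 in the p53-KO EpiLC (55.3%), 1 of 6 in the wild-type EpiLC (56.2%), 1 of 21 in the haploid ESC (53.2%) and 2 of 6 in the diploid ESC library (55.5%). The genes were Col18a1 in every EpiSC and EpiLC library but the diploid p53-KO EpiSC, Col2a1 in the 5 EpiSC libraries, Col4a6 in haEpi1 and the diploid p53-KO EpiSC, Col7a1 in haEpi1, Col11a2 in haEpi1 and the female EpiSC, Col9a3 in the female EpiSC, Col9a2 in the female EpiSC and the diploid ESC, Col20a1 in the haploid ESC and Col13a1 in the diploid ESC library. On the CPM scale 4 genes were above MEF in the male EpiSC library in place of 2, and with a minimum of 2 FPKM 3 were in haEpi1, 1 was in the diploid p53-KO EpiSC, none was in the haploid ESC and 1 was in the diploid ESC library. With a minimum of 0.5 FPKM, 3 were above MEF in the haploid ESC library.

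Among the fibrillar genes, Col1a1 and Col1a2, the chains of type I collagen, varied widely between the pluripotent libraries. Col1a1 stood at 285, 586, 229, 165 and 523 CPM in haEpi1, haEpi5, the female, the male and the diploid p53-KO EpiSC library, a mean of 357 ± 186 CPM (SD, n = 5). It was at 30.4 CPM in the p53-KO EpiLC, 1.94 CPM in the wild-type EpiLC, 594 CPM in the haploid ESC, 1.68 CPM in the diploid ESC and 24560 CPM in the MEF library. The haploid ESC library was as high as the highest EpiSC library, and the diploid ESC and wild-type EpiLC libraries were the lowest, with 27 and 30 reads. As percent of MEF, Col1a1 ran from 0.00683% to 2.42%, and Col1a2 from 0.00197% to 3.21%. Col3a1, which forms fibrils together with type I collagen, ran from 25.4 to 222 CPM in EpiSC and was at 0 in the wild-type EpiLC and diploid ESC libraries, where a count of 0 allows up to 0.194 and 0.186 CPM. It was at 9.95 CPM in the p53-KO EpiLC, 41.2 CPM in the haploid ESC and 14849 CPM in the MEF library.

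Col5a1 and Col5a2 encode chains of the type V collagen that starts type I fibrils. In EpiSC, Col5a1 averaged 162 ± 47.2 CPM and Col5a2 224 ± 138 CPM (SD, n = 5). Col5a1 stood at 181, 207, 135, 92.7 and 193 CPM in the 5 EpiSC libraries in the order above, at 28.1 and 15.2 CPM in the p53-KO and wild-type EpiLC, at 133 and 27.9 CPM in the haploid and diploid ESC and at 4134 CPM in the MEF library. Every EpiSC library was above both EpiLC libraries, and the haploid ESC library lay within the EpiSC range. Col5a2 stood at 169, 270, 82.4, 441 and 159 CPM in EpiSC and was highest in the male library, at 13.5% of its MEF level, where Col5a1 was lowest. The FPKM ratio of Col5a1 to Col5a2 was 0.238 there (95% counting interval 0.225 to 0.251), against 0.867 to 1.85 in the other EpiSC libraries and 1.43 in MEF.

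Col2a1, the fibrillar collagen of cartilage, which is also known from embryonic epithelia, showed another pattern. It stood at 35.4, 49.5, 119, 33.8 and 55.2 CPM in the EpiSC libraries, a mean of 58.5 ± 34.8 CPM (SD, n = 5). The other levels were 9.69 and 11.9 CPM in the p53-KO and wild-type EpiLC, 7.49 and 8.57 CPM in the haploid and diploid ESC and 23.1 CPM in the MEF library. All 5 EpiSC libraries were above MEF, and all EpiLC and ESC libraries were below it. Of 7 cartilage markers tested in EpiSC against ESC, none was higher by edgeR (background 6.86%) and 1 was lower (background 10.1%), with 5 at an unadjusted p below 0.05. The estimate was positive for 4 of the 7, with a median log2 fold change of 0.80 against -0.02 over all genes tested. Matn3, a cartilage matrix protein, averaged 7.94 CPM in EpiSC and 3.26 CPM in ESC (edgeR adjusted p = 0.110). The 8 genes of that list summed to 13.3 to 31.3 CPM in EpiSC, 17.7 and 23.4 CPM in EpiLC, 19.7 and 25.2 CPM in ESC and 49.1 CPM in MEF. Acan, the main cartilage proteoglycan, was lower in EpiSC than in ESC (1.89 against 13.9 CPM, log2 fold change -2.90 ± 0.64 (SE), edgeR adjusted p = 0.0140). The female EpiSC library was highest both for Col2a1 and for Sox9, the cartilage and neural crest factor. Sox9 stood at 19.8 CPM there, 0.962 to 14.5 CPM in the other EpiSC, 0.186 and 2.10 CPM in ESC and 34.2 CPM in MEF, and the part of Sox9-expressing cells in the Col2a1 level was not tested.

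The remaining fibrillar genes were low outside MEF. Col11a1, a partner of Col2a1 in cartilage fibrils, stood at 6.53, 8.07, 11.4, 6.34 and 38.6 CPM in EpiSC, highest in the diploid p53-KO library, and at 485 CPM in MEF. Col27a1 ran from 5.43 to 14.9 CPM in EpiSC, and stood at 1.51 and 6.20 CPM in EpiLC, 2.35 and 2.49 CPM in ESC and 89.8 CPM in MEF. Col11a2 reached 1.41 FPKM in haEpi1 and 1.31 FPKM in the female EpiSC, just above its 1.24 FPKM in MEF. Col5a3 and Col24a1 reached 44.3 and 4.92 CPM at most in the pluripotent libraries, against 415 and 91.7 CPM in MEF.

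**Figure D4:**
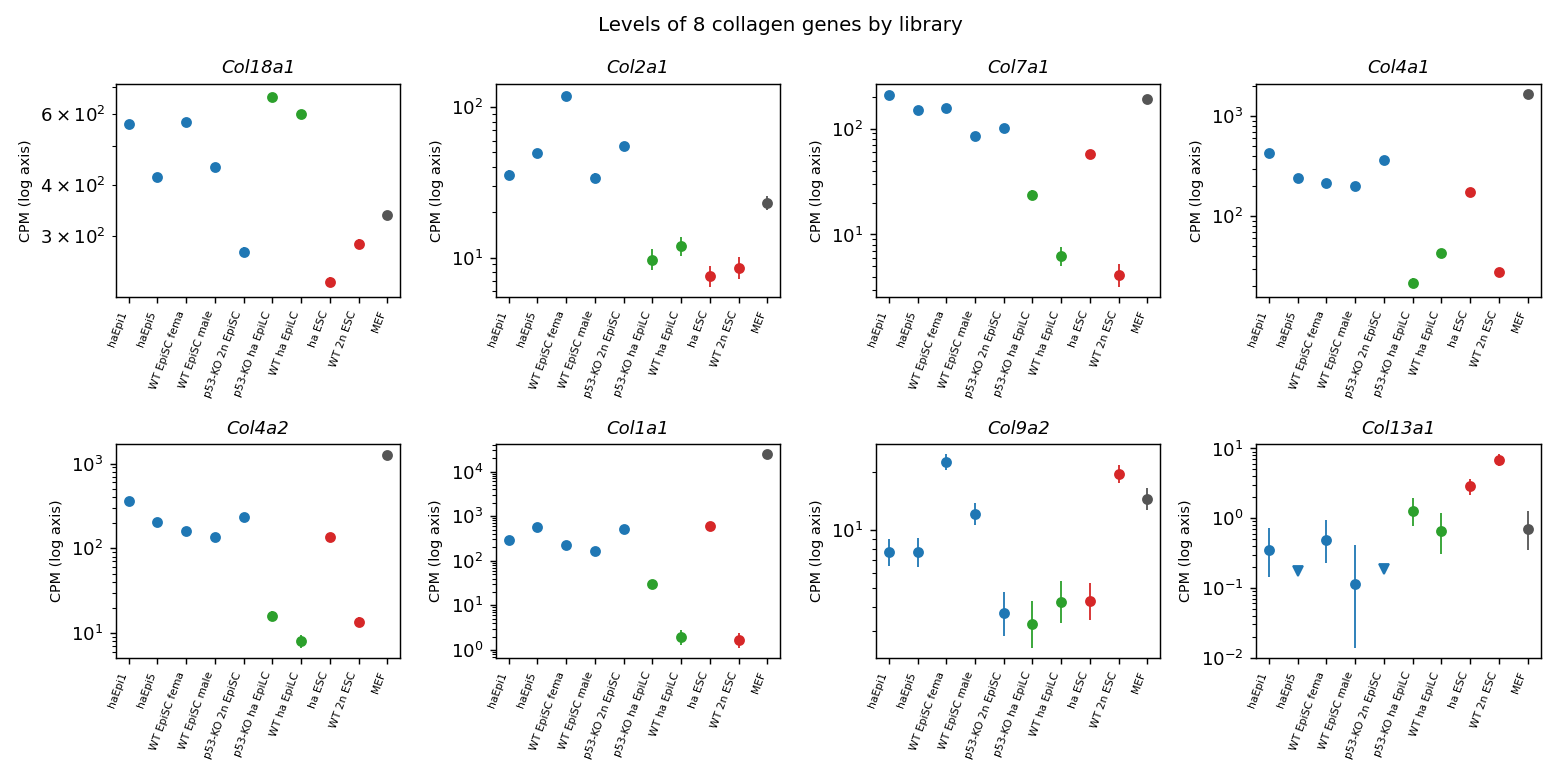
CPM of 8 collagen genes in the 10 libraries on log axes with a separate scale per gene; points are coloured by cell type, bars are 95% Poisson intervals, and triangles mark a count of 0 drawn at 3 counts. Col18a1 stays between 231 and 662 CPM, whereas Col1a1 spans 1.68 to 24560 CPM.

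Over the 9 pluripotent libraries the median percent of the MEF level was 12% for Col4a1, 10.7% for Col4a2 and 13.8% for Col4a5, against 0.932% for Col1a1, 0.976% for Col1a2 and 0.277% for Col3a1; the difference was not tested. The fibrillar Col5a2, at 13.5% in the male EpiSC library, was above Col4a1 (12%) and Col4a2 (10.7%) there. Col4a1 stood at 430, 239, 216, 201 and 365 CPM in the EpiSC libraries, 21.7 and 42.8 CPM in the p53-KO and wild-type EpiLC, 173 and 27.5 CPM in the haploid and diploid ESC and 1673 CPM in MEF. Col4a2, transcribed from the neighbouring start shown above, stood at 358, 207, 160, 136 and 234 CPM in EpiSC, 16.0 and 8.0 CPM in EpiLC, 135 and 13.5 CPM in ESC and 1275 CPM in MEF. For both chains every EpiSC library was above every EpiLC and ESC library, with the haploid ESC library just under the lowest EpiSC value. Col4a1 was at 12% to 25.7% of MEF in EpiSC and above the fibroblast median in 9 of 9 libraries, as were Col4a2 and Col4a5.

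The main type IV molecule joins both chains in a fixed proportion. The FPKM ratio of Col4a1 to Col4a2 was 1.02 to 1.38 in EpiSC, 1.16 in MEF, 1.13 in the haploid ESC and 1.20 in the p53-KO EpiLC library. It was 1.81 (1.53 to 2.13) in the diploid ESC and 4.74 (95% counting interval 3.91 to 5.79) in the wild-type EpiLC library, where 663 reads fell in Col4a1 and 124 in Col4a2. The wild-type EpiLC library thus stood apart from the other 9 in this ratio, with no replicate of its genotype and cell type.

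The X-linked pair Col4a5 and Col4a6, also divergent neighbours, were lower in all libraries. Col4a5 stood at 29.1, 24.4, 12, 14.1 and 33.7 CPM in EpiSC, 3.02 and 0.71 CPM in EpiLC, 7.64 and 0.870 CPM in ESC and 87.1 CPM in MEF. Col4a6 stood at 8.69, 4.03, 4.21, 4.36 and 8.68 CPM in EpiSC, 0.441 and 0.194 CPM in EpiLC, 0.799 and 0.0621 CPM in ESC and 7.91 CPM in MEF. Col4a6 was at or above the MEF level in haEpi1 and the diploid p53-KO EpiSC library, while Col4a5 stayed below it. The FPKM ratio of Col4a5 to Col4a6 was accordingly 3.38 to 7.19 in EpiSC and 13.1 in MEF. Col4a3 and Col4a4, chains of the kidney glomerulus, did not exceed 0.328 and 0.735 CPM in a pluripotent library.

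The beaded filament genes split into the fibroblast chains Col6a1, Col6a2 and Col6a3 and the low chains Col6a4, Col6a5 and Col6a6. Col6a1 stood at 23.9, 60.9, 24.8, 9.16 and 7.50 CPM in EpiSC, 2.14 and 0.387 CPM in EpiLC, 26.8 and 0.0621 CPM in ESC and 3190 CPM in MEF. Col6a1 was highest in haEpi5 and lowest in the male and diploid p53-KO EpiSC libraries, as were the summed fibroblast genes (1524, 383 and 333 CPM), while haEpi1 and the female library lay close together in both (1003 and 926 CPM for the sum). Col6a5 was highest among the pluripotent libraries in the p53-KO EpiLC (16.6 CPM) and the haploid ESC (12.8 CPM), against 0.905 to 4.47 CPM in EpiSC and 49.2 CPM in MEF. Col6a6 was at 0 in 4 of 5 EpiSC libraries, with 1 read in the male library, and at 2.27 and 0.645 CPM in EpiLC, 0.449 and 0.186 CPM in ESC and 49.8 CPM in MEF.

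Of the FACIT genes, Col12a1 and Col16a1 had the highest FPKM in MEF (321 and 91.1). Col12a1, which sits on type I fibrils, ran from 8.15 to 116 CPM in EpiSC and stood at 3.21 and 0.258 CPM in EpiLC, 98.0 CPM in the haploid ESC, 0 in the diploid ESC and 4720 CPM in the MEF library. Col16a1 stood at 63.0, 44.1, 33.6, 15.8 and 22.3 CPM in EpiSC, 4.41 and 0.774 CPM in EpiLC, 12.3 and 1.55 CPM in ESC and 593 CPM in MEF. Col9a2, a chain of the type IX collagen that decorates type II fibrils, stood at 7.69, 7.66, 22.5, 12.2 and 3.72 CPM in EpiSC, 3.27 and 4.26 CPM in EpiLC, 4.29 and 19.6 CPM in ESC and 14.6 CPM in MEF. The diploid ESC library was high for Col9a2 but not for its partner Col9a3 (2.80 CPM), with an FPKM ratio of 8.71 (95% counting interval 6.36 to 12.2) against 2.13 in MEF and 0.934 to 1.87 in the other libraries. Col9a3 shares 234 exon bases with Tcfl5 on the opposite strand, and reads of the pair cannot be told apart, since no source used here gives the strand setting. Col14a1, Col19a1, Col20a1, Col22a1 and Col9a1 did not exceed 8.14 CPM in a pluripotent library.

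Col18a1 was abundant in all 10 libraries. It stood at 566, 420, 572, 443 and 274 CPM in the 5 EpiSC libraries, a mean of 455 ± 123 CPM (SD, n = 5), at 662 and 601 CPM in the p53-KO and wild-type EpiLC, at 231 and 287 CPM in the haploid and diploid ESC and at 337 CPM in MEF. By mean level the order was EpiLC, EpiSC, MEF and ESC, and no pair of cell types passed the edgeR test (adjusted p = 0.102 for EpiSC against ESC, 0.158 for EpiLC against ESC, 0.282 for EpiSC against EpiLC). Both EpiLC libraries lay above all others, and the EpiSC range took in both MEF and the diploid ESC library. Col15a1, the other multiplexin, was at 129 CPM in MEF and between 0.124 and 1.48 CPM elsewhere.

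Col7a1, the collagen of the anchoring fibrils under epithelia, was at 44.2% to 109% of its MEF level in EpiSC. It stood at 209, 151, 156, 85.0 and 100 CPM in EpiSC, 23.9 and 6.26 CPM in EpiLC, 57.2 and 4.10 CPM in ESC and 192 CPM in MEF. EpiSC against MEF gave a log2 fold change of -0.48 ± 0.97 (SE, edgeR adjusted p = 0.791), and EpiSC against EpiLC 3.20 ± 0.94 (adjusted p = 0.0595), which missed the threshold. Of the transmembrane collagens, Col23a1 stood at 48.6 CPM in MEF and at 0.373 to 1.71 CPM in the pluripotent libraries, and Col17a1 and Col25a1 did not exceed 4.53 and 8.29 CPM in a library. Col13a1, which is also transmembrane, was highest in ESC, with 2.85 CPM in the haploid and 6.90 CPM in the diploid library against 0 to 0.492 CPM in EpiSC, 1.26 and 0.645 CPM in EpiLC and 0.701 CPM in MEF. Of the short-chain network genes, Col8a1 ran from 10.8 to 62.3 CPM in EpiSC and Col8a2 from 1.41 to 4.16 CPM, against 337 and 117 CPM in MEF, and Col10a1, the collagen of hypertrophic cartilage, did not exceed 0.999 CPM in a library.

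EpiSC and ESC were compared next. Of 43 collagens tested, 7 passed edgeR's quasi-likelihood test at an adjusted p of 0.05, against a background of 16.9% of the 21104 genes tested, so the members' share was near the background. Higher in EpiSC were 4 (background 6.86%): Col2a1, Col27a1, Col8a2 and Col4a6. Lower were 3 (background 10.1%): Col13a1, Col20a1 and Col6a6. The median log2 fold change over the 43 was 0.92, against -0.02 over all genes tested. An unadjusted p below 0.05 was found for 15, a count without a background, since the share of all genes there is not given here. Beside them, 16 of the 18 fibroblast genes had a positive estimate, with 1 gene (Fstl1) higher by edgeR and a median of 1.37; their part in the collagen result was not tested.

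Col2a1 averaged 58.5 CPM in EpiSC and 8.03 CPM in ESC, a log2 fold change of 2.84 ± 0.54 (SE, adjusted p = 0.00756). Col4a6 averaged 5.99 and 0.431 CPM (3.74 ± 0.88, adjusted p = 0.0185), Col8a2 2.59 and 0.518 CPM (2.26 ± 0.66, adjusted p = 0.0432) and Col27a1 9.64 and 2.42 CPM (1.97 ± 0.60, adjusted p = 0.0497). The EpiSC and ESC libraries did not overlap in any of these genes. Since the genes were picked by the test on the same values, this adds no support of its own. Col13a1 fell, with 18 reads in the 5 EpiSC against 168 in the 2 ESC libraries, a normalised ratio of 23.1 of ESC to EpiSC (95% counting interval 14.2 to 39.9, edgeR adjusted p = 0.0124). Col20a1 fell by 2.68 ± 0.66 on the log2 scale (adjusted p = 0.0228), with 8.14 CPM in the haploid and 1.80 CPM in the diploid ESC library against 0.372 to 1.51 CPM in EpiSC; it shares 79 exon bases with BX649560.1. Col6a6 had 1 read in EpiSC and 12 in ESC, a ratio of 29.7 (4.39 to 1269, adjusted p = 0.0171). The type I chains did not pass, with 0.28 ± 1.38 for Col1a1 (adjusted p = 0.916).

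For the alternative fits the share of all genes called is not given here, so their counts describe the collagens without a background. The fits with covariates and with wild-type libraries only also left out MEF. The count of collagens called rested on single libraries and on the settings. It was 2 without the diploid ESC, 19 without the haploid ESC, 4 without haEpi5, 4 without MEF, 1 with p53 and ploidy as covariates, 0 with wild-type libraries only, 13 with DESeq2 and 14 without the low-count filter, and none of the 7 genes passed under every alternative.

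**Figure D5:**
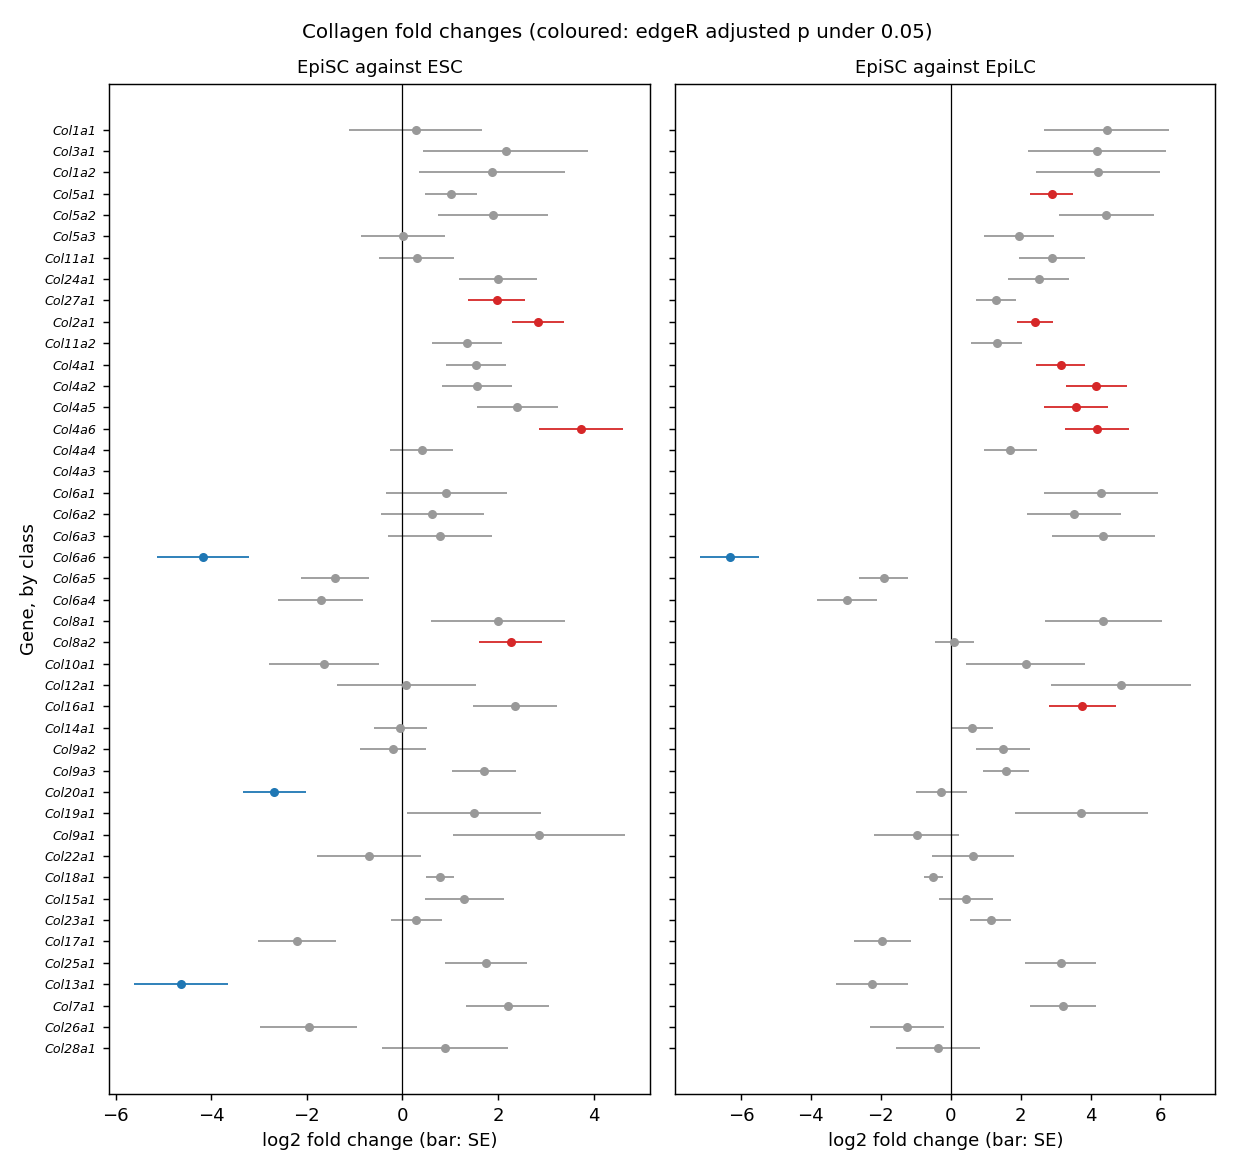
Log2 fold change of each tested collagen gene (rows, by class) in EpiSC against ESC (left) and EpiSC against EpiLC (right), with bars of 1 SE from edgeR; red and blue mark genes higher and lower in EpiSC at an adjusted p under 0.05. Against EpiLC 7 genes are red and 1 is blue, against ESC 4 are red and 3 are blue; both panels share the EpiSC libraries.

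EpiSC had more of several collagens than EpiLC. Of the 43 tested, 8 passed (background 9.65%), 7 of them higher in EpiSC (background 3.77%) and 1 lower (background 5.88%). The 7 were Col4a1, Col4a2, Col4a5, Col4a6, Col5a1, Col16a1 and Col2a1, so 4 of the 5 basement membrane genes tested rose. The median log2 fold change was 2.15, against 0.01 over all genes tested. An unadjusted p below 0.05 was found for 26 of the 43, again without the share of all genes beside it. By class the medians were 3.58 for the basement membrane and 2.89 for the fibrillar genes.

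Col4a2 averaged 219 CPM in EpiSC and 12 CPM in EpiLC, a log2 fold change of 4.17 ± 0.87 (SE, edgeR adjusted p = 0.0184). Col4a1 averaged 290 and 32.3 CPM (3.14 ± 0.70, adjusted p = 0.0242), Col4a6 5.99 and 0.317 CPM (4.19 ± 0.92, adjusted p = 0.0223) and Col4a5 22.7 and 1.87 CPM (3.58 ± 0.92, adjusted p = 0.0383). Col16a1 averaged 35.8 and 2.59 CPM (3.77 ± 0.97, adjusted p = 0.0393), Col5a1 162 and 21.7 CPM (2.89 ± 0.62, adjusted p = 0.0200) and Col2a1 58.5 and 10.8 CPM (2.41 ± 0.53, adjusted p = 0.0217). In all 7 genes the lowest EpiSC library was above both EpiLC libraries, which adds no support, since the test on the same values had picked them. Col6a6 fell, with 1 read in EpiSC and 46 in EpiLC, a ratio of 131 of EpiLC to EpiSC (22.4 to 5284, adjusted p = 0.00306). Col1a1 had a larger estimate than several of these, 4.46, but an SE of 1.80 and an adjusted p of 0.142.

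Of the fibroblast genes 16 of the 18 had a positive estimate, 2 (Pdgfrb and Fstl1) passed the edgeR test, and their sum was 333 to 1524 CPM in EpiSC against 73.8 and 152 CPM in EpiLC; their part in the collagen result was not tested. Of 12 extraembryonic endoderm markers, whose cells make type IV collagen and laminin, 8 had a positive estimate, Sparc was higher (background 3.77%) and Gata4 lower (background 5.88%), and the median log2 fold change was 1.49. Sparc, which fibroblasts also make, averaged 639 CPM in EpiSC and 129 CPM in EpiLC, and the endocytic adaptor Dab2 21.5 and 5.88 CPM (edgeR adjusted p = 0.0822). The factors Gata4, Gata6, Sox17, Sox7 and Foxa2 did not exceed 0.339, 1.31, 0.744, 2.36 and 1.21 CPM in an EpiSC library. Gata6, Sox7 and Foxa2 had higher means in EpiSC (0.952, 1.34 and 0.497 CPM) than in EpiLC (0.475, 0.413 and 0.192 CPM). Gata4 and Sox17 had lower means in EpiSC (0.265 and 0.277 CPM) than in EpiLC (2.50 and 0.381 CPM). The part of such cells in the collagen result was not tested. Both EpiLC libraries were haploid, whereas 3 of the 5 EpiSC libraries were diploid. The fits with covariates and with wild-type libraries only left out MEF, and for all alternatives the share of all genes called is not given here. With p53 and ploidy as covariates 8 collagens passed, all higher in EpiSC; Col2a1 was no longer among them (edgeR adjusted p = 0.0526, and 5.67e-05 to 0.356 over its 16 alternatives), and the other 6 of the 7 higher genes were. The count of collagens called was 1 when either EpiLC library was left out, 18 when either ESC library was left out, 0 with wild-type libraries only, 19 with DESeq2 and 22 without the low-count filter.

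EpiLC and ESC did not differ in any collagen by edgeR (0 of 43, background 0.426%), while 11 had an unadjusted p below 0.05 and DESeq2 called 2. The median log2 fold change was -1.34, against -0.05 over all genes. For Col4a2 and Col5a1 the diploid ESC library lay within the EpiLC range and the haploid ESC library far above it, so the ESC libraries spread widely. Without the low-count filter 7 passed. The share of all genes is not given here for this count, the DESeq2 count or the count at an unadjusted p.

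Against MEF, every collagen that passed the edgeR test was lower in the pluripotent cells. In EpiSC 28 of 43 were lower (background 8.79% lower and 5.93% higher), in EpiLC 30 (13.9% and 12%) and in ESC 25 (12% and 9.36%). The 3 comparisons share the MEF library, whose spread was assumed to be that of the others. The median log2 fold changes were -4.07, -5.62 and -5.02, against 0.11, 0.17 and 0.22 over all genes tested. Col6a3 had log2 fold changes of -8.29 ± 1.16, -12.65 ± 2.06 and -9.07 ± 1.78 (SE) in EpiSC, EpiLC and ESC, with edgeR adjusted p values of 0.00237, 0.00345 and 0.00853. Col4a1 fell less, with log2 fold changes of -2.55 ± 0.65, -5.69 ± 0.89 and -4.08 ± 0.85 (edgeR adjusted p = 0.0276, 0.00310 and 0.0103). Col18a1, Col2a1, Col9a2, Col9a3, Col11a2, Col20a1, Col22a1, Col13a1, Col17a1 and Col10a1 passed in none of the 3. The EpiLC count was 16 without the wild-type EpiLC library and the ESC count 15 without the diploid ESC library.

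Within EpiSC, no collagen passed the edgeR test between the labelled genotypes (0 of 37 tested in each of 3 comparisons, background 0%). At an unadjusted p below 0.05 there were 9 for haploid p53-KO against diploid wild type, 10 for diploid p53-KO against diploid wild type and 6 for haploid against diploid p53-KO, and DESeq2 called 0, 2 and 5. These comparisons share their groups, and the shares of all genes at an unadjusted p below 0.05 or called by DESeq2 are not given here. Col1a2 stood at 201 and 409 CPM in the haploid p53-KO, 178 and 103 CPM in the wild-type and 507 CPM in the diploid p53-KO library. The estimates for Col1a2 against wild type were 1.12 ± 0.43 for the haploid (SE, adjusted p = 0.976) and 1.84 ± 0.50 for the diploid p53-KO library (adjusted p = 1.00). Col4a5 was likewise lowest in the wild-type libraries, and Col9a2 and Col9a3 were lowest in the diploid p53-KO library. In the diploid p53-KO library Col6a1, Col6a2, Col6a3 and Col5a3 were low together with the fibroblast genes, while Col1a1, Col1a2, Col8a1 and Col11a1 were not.

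The enzymes and chaperones that make collagen were also read. Of 21 genes of collagen folding and modification, 7 were higher in EpiSC than in EpiLC and none was lower (background 3.77% higher and 5.88% lower). These were Serpinh1, the collagen chaperone HSP47, the lysyl hydroxylases Plod1, Plod2 and Plod3, the prolyl hydroxylase subunit P4ha1, P3h4 and Fkbp14. Serpinh1 averaged 473 CPM in EpiSC and 44.2 CPM in EpiLC, a log2 fold change of 3.39 ± 0.57 (SE, edgeR adjusted p = 0.00812). Against ESC 3 of the 21 were higher (P3h2, Plod3 and Serpinh1; background 6.86%), with 2.09 ± 0.53 for Serpinh1 (adjusted p = 0.0249). The median log2 fold changes of the 21 were 1.17 against EpiLC and 0.47 against ESC, and 0.01 and -0.02 over all genes tested. Serpinh1 stood at 2664 CPM in MEF. In EpiSC against MEF, 12 of the 21 were lower and none was higher (background 8.79% and 5.93%). The part of fibroblasts in the EpiSC levels of these genes was not tested.

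Of 12 tested genes that cut and cross-link collagen, 1 was higher in EpiSC than in EpiLC (background 3.77%), the lysyl oxidase Loxl2, at 134 against 4.36 CPM (4.92 ± 0.97, edgeR adjusted p = 0.0149), and against ESC none passed (background 6.86% higher; 3 at an unadjusted p below 0.05). Of 7 collagen receptors none passed against EpiLC (4 at an unadjusted p below 0.05), and the integrin subunit Itgb1 (928 against 282 CPM, 1.71 ± 0.43, adjusted p = 0.0238) and the receptor kinase Ddr1 (207 against 50.4 CPM, 2.03 ± 0.46, adjusted p = 0.0157) were higher in EpiSC than in ESC, 2 of the 7 (background 6.86%). Of 6 collagenases tested, 1 passed against EpiLC and 3 against ESC, all higher in EpiSC (background 3.77% and 6.86%). Mmp14 passed against both EpiLC (133 against 25.3 CPM) and ESC (32.2 CPM), and Mmp2 and Mmp8 passed against ESC, where Mmp8 was at 0 in both libraries. These comparisons share the EpiSC libraries. In MEF, Loxl2 stood at 426, Itgb1 at 1312.5, Mmp14 at 1355 and Mmp2 at 711 CPM, above their EpiSC means. Ddr1 and Mmp8, at 135 and 1.40 CPM in MEF, were below theirs. The part of fibroblasts in these results was not tested.

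Of 14 genes for proteins that join type IV collagen in basement membranes, 4 were higher in EpiSC than in EpiLC and none was lower (background 3.77% and 5.88%), with 6 at an unadjusted p below 0.05. They were Pxdn, whose product cross-links type IV collagen, the laminin chains Lama4 and Lamb2, and Hspg2 (perlecan). Pxdn averaged 388 CPM in EpiSC, 76.2 CPM in EpiLC and 30.0 CPM in ESC, with log2 fold changes of 2.33 ± 0.58 and 3.69 ± 0.63 (SE, edgeR adjusted p = 0.0345 and 0.00453). Against ESC 3 were higher (Pxdn, Lamb1 and Lama4; background 6.86%) and 2 lower (Lama1 and Nid2; background 10.1%), Lama1 at 4.79 against 71.2 CPM (-3.92 ± 0.49, adjusted p = 0.00109). The median log2 fold changes of the 14 were 1.25 against EpiLC and 0.22 against ESC. Of the genes higher in EpiSC, Pxdn stood at 650, Lama4 at 507, Lamb1 at 712, Lamb2 at 347 and Hspg2 at 2204 CPM in MEF. All 5 were above their EpiSC means there, and the part of fibroblasts was not tested. EpiLC against ESC gave 0 calls by edgeR in each of these 5 lists, with 8, 4, 1, 1 and 6 genes at an unadjusted p below 0.05 for folding, processing, receptors, collagenases and basement membrane partners.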

How the data were processed

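The authors aligned poly-A RNA reads with HISAT2 2.0.5 to mm10 and made the deposited counts, whole reads per gene, with featureCounts 1.5.0-p3, per the submitters' processing notes; annotation release and strand setting are not given in the sources used here. The deposited FPKM equalled these counts divided by gene length and a constant per library (largest relative deviation 1.7e-08). All 44 genes had identical coordinates in GENCODE vM21.

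Levels of 1 gene across libraries are CPM with TMM factors and 95% Poisson intervals, which cover counting error only; levels between genes are FPKM. For a gene without reads the upper limit was 3 counts. Cell types were compared in 1 edgeR 4.0.16 quasi-likelihood fit (R 4.3.3) of all 10 libraries after filterByExpr, with p adjusted over all genes tested at 0.05; the 3 EpiSC comparisons used the 5 EpiSC libraries. Single-library groups were assumed to vary like the others. SEs derive from the F statistic. Counts at an unadjusted p below 0.05 are given without the share of all genes at that threshold, so they have no background. DESeq2 1.42.0, limma 3.58.1 on log2(FPKM + 1), other scaling, no filter, covariates, wild-type libraries only and leaving out each library were alternatives. The covariate and wild-type fits also left out MEF, so their counts do not isolate the covariates or the genotype. The wild-type fit rests on the fewest libraries and has little power. Calls under the alternatives are given without the share of all genes called. The code was tested on simulated data.

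Named genes were members called among EpiSC, EpiLC and ESC, the 10 highest in MEF, and members above MEF at 1 FPKM or more; the rest are given by class, and from each pathway list up to 6 called genes. The members and the 13 gene lists were chosen with earlier results of these data known. Markers of other cell types were neural, endothelial, cartilage, extraembryonic endoderm and fibroblast genes. One result on basement membrane partners is not reported here.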

Additional observations from a re-analysis of the deposited data

Results flagged for a closer look

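Among 24 collagen genes examined in the 5 EpiSC libraries, 3 had 1 library far from the other 4 by Dixon's test on linear CPM. The test flags about 1 in 20 groups of normally distributed values, which linear CPM need not be. All 3 flags were for the highest library, and the log scale was not tested. Col11a1 reached 38.6 CPM in the diploid p53-KO line and between 6.34 and 11.4 CPM in the other 4. Col2a1 was at 119 CPM in the female EpiSC library and between 33.8 and 55.2 CPM in the other 4. Col9a3 was at 24.7 CPM in the same female library and between 4.96 and 8.94 CPM elsewhere in EpiSC.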

How the results depend on the processing

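Collagens called by edgeR in EpiSC against ESC were 7, and 13 with DESeq2, 14 without the low-count filter, 1 with covariates, 0 with wild-type libraries only and 2 to 19 when each library was left out. EpiLC against ESC gave 0, 2 with DESeq2, 7 without the filter and 0 to 0 with a library left out. EpiSC against EpiLC gave 8, 19 with DESeq2, 22 without the filter, 0 with wild-type libraries only and 1 to 18 with a library left out. Against MEF the left-out ranges were 21 to 28 for EpiSC, 16 to 30 for EpiLC and 15 to 30 for ESC. Within EpiSC, haploid p53-KO against wild type gave 2 without the filter and 0 to 2 with a library left out; diploid p53-KO against wild type gave 2 with DESeq2, 4 without the filter and 0 to 1; haploid against diploid p53-KO gave 5 with DESeq2, 5 without the filter and 0 to 3. The cause was not tested, and the share of all genes called in each of these runs is not given here. Collagens above MEF became 3 in haEpi1, 1 in the diploid p53-KO EpiSC, 0 in the haploid ESC and 1 in the diploid ESC library at a minimum of 2 FPKM, 3 in the haploid ESC library at 0.5 FPKM, and 4 in the male EpiSC library on the CPM scale. With deposited FPKM or a MEF minimum of 50 CPM, each fibroblast median moved by less than the SD of the medians within its cell type. In ESC that SD comes from medians of 3.18% and 0.0186%, so it is too wide to judge the diploid library. A MEF minimum of 1 CPM could change nothing, since all 18 genes had at least 10 CPM in MEF. Of called genes over all alternatives, 74 of 109 gene-by-setting values stayed past the threshold in EpiSC against ESC, 94 of 125 in EpiSC against EpiLC, 322 of 358, 361 of 386 and 305 of 321 against MEF for EpiSC, EpiLC and ESC, and none changed direction. No paired analysis was possible because the only replicate number in the titles and column names is 1, so the groups compared share fewer than 2. Depth limits the low genes: 3 counts correspond to 0.150 to 0.194 CPM.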

Other observations

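Other marker lists gave these levels beside the collagens. The 8 neural genes summed to 387 to 745 CPM in EpiSC, 52.1 and 180 CPM in EpiLC, 84.1 and 152 CPM in ESC and 347 CPM in MEF. Most of the sum in EpiSC and MEF was Nes, at a mean of 432 CPM and at 279 CPM. Nes and Map2 were higher in EpiSC than in ESC (edgeR adjusted p = 0.00945 and 0.0172). The 7 endothelial genes summed to 3.17 to 17.8 CPM in EpiSC, 25.9 and 87.1 CPM in EpiLC, 59.3 and 176 CPM in ESC and 27.6 CPM in MEF. Most of the ESC sum was Pecam1, at a mean of 109 CPM against 1.70 CPM in EpiSC. Cdh5, Tie1, Emcn and Erg did not exceed 1.10 CPM in an ESC library. Tek and Kdr reached 6.90 and 3.99 CPM in an ESC library and 3.97 and 2.81 CPM in an EpiSC library. The 12 extraembryonic endoderm genes summed to 481 to 972 CPM in EpiSC, 98.9 and 209 CPM in EpiLC, 356 and 667 CPM in ESC and 5715 CPM in MEF; most of the sum was Sparc, which fibroblasts also make. The type I chains had an FPKM ratio of Col1a1 to Col1a2 of 1.95 to 3.04 in EpiSC and 2.95 in MEF, but 7.31 (95% counting interval 7.02 to 7.61) in the haploid ESC library.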
